A study of Mus musculus with 12 samples.

Results

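Axon guidance ligands and receptors are the cell surface and secreted proteins by which growing axons are attracted or repelled. The set described here holds every row of the gene count table whose symbol names a semaphorin of classes 3 to 7, a plexin, a neuropilin, an Eph receptor, an ephrin, a netrin, a Slit, a Robo, an Unc5 protein or Dcc. There are 73 such rows among 24421. Of these, 70 had at least 10 counts in 6 or more libraries and were tested, among 15111 tested genes in all. The 3 that were not tested were Efna4, with 77 counts over all 12 libraries, Unc5cl with 87 and Plxna4os1 with 92. The latter pair match by their letters only: Unc5cl encodes a death domain protein that is not a netrin receptor, and Plxna4os1 is a transcript opposite the plexin gene Plxna4.

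RNA was taken from both striata of ethanol-drinking male C57BL/6J mice, an inbred strain, and the labels name no transgene. In the saline group (n = 6 libraries) the injection before drinking was saline, and in the varenicline group (n = 6) it was varenicline at 2 mg/kg, a partial agonist of nicotinic acetylcholine receptors. All mice of both groups went through 3 drinking cycles of 2 days with 20% ethanol and were killed after the last session. They were injected 30 min ahead of the second session of each cycle, with saline in the first cycle and with their assigned agent in the other 2, and the groups were matched for ethanol intake in the first cycle. The labels give no age, no pooling and no pairing, so the p-values below measure the spread between these libraries, which may in part be technical. The comparison asks which transcripts differ in the striatum of drinking mice after drug and after vehicle.

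Semaphorins signal mostly by repulsion through plexins, and most of the secreted class 3 semaphorins need a neuropilin as co-receptor. Ephrins and Eph receptors are both membrane bound, so that signals pass in either direction between touching cells. Netrin-1 attracts axons through DCC and repels them when a UNC5 receptor takes part, Slits repel through Robo receptors, and the netrin-G proteins are membrane-anchored relatives that bind other partners at synapses. In the adult brain many of these genes stay on and serve spines, synapses, vessels and myelin. In the striatum they are known for laying out the compartments and the dopaminergic and cortical inputs during development.

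Library totals ran from 13340420 to 27917715 counts, with means of 23324001 ± 5011872 for saline and 19584990 ± 4307321 for varenicline (SD, n = 6; exact two-sided permutation p = 0.190). All 16 striatal projection neuron markers were detected in every library, with a summed level of 9504 to 14804 CPM (counts scaled to library size) in the saline and 10198 to 16356 CPM in the varenicline group. All 16 were higher with varenicline, 7 at an unadjusted p under 0.05, as were 11 of 12 oligodendrocyte markers, 6 at that threshold, and 10 of 10 astrocyte markers, 3 at that threshold. The exact two-sided permutation p of the mean log2 CPM of these 3 lists was 0.123, 0.0563 and 0.0281 (adjusted p = 0.247, 0.141 and 0.0938 over 10 lists). Their part in the results below was not tested. Of 14 markers of cortical excitatory neurons 13 were lower with varenicline, 10 of them at an unadjusted p under 0.05, and none was at 0 in any library. Their summed level ran from 946 to 1547 CPM in saline and from 394 to 1343 CPM in varenicline libraries, and the highest varenicline value belonged to the library varenicline 6. Of 12 septal and pallidal markers 10 were higher with varenicline, 9 at an unadjusted p under 0.05, with sums of 90.2 to 147 CPM and of 107 to 179 CPM. The mean log2 CPM of the cortical list, its score, averaged 5.42 ± 0.301 in saline and 4.34 ± 0.829 in varenicline libraries (SD, n = 6; exact two-sided permutation p = 0.0173, adjusted p = 0.0866 over 10 lists). The marker lists were chosen with earlier results of these data known, so their p-values are not those of independent tests. In bulk tissue, fewer cells of a type and less RNA per cell cannot be told apart.

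Of the netrin-related members lower at an unadjusted p under 0.05, whose values are given below, Unc5d is not shown here. The promoters of the other 4, which fall into 2 pairs of close relatives, are printed. Each is the stretch of 250 bases before the gene start in RefSeq, build GRCm38.p6 (the assembly called mm10 in the deposited tables), read 5′ to 3′ on the strand of the gene, with capitals marking any match to the motifs searched. The windows lie at chr2:29248100-29248349 on the minus strand for Ntng2, chr3:110143473-110143722 on the minus strand for Ntng1, chr13:54949161-54949410 on the plus strand for Unc5a and chr3:141465314-141465563 on the plus strand for Unc5c.
Ntng2: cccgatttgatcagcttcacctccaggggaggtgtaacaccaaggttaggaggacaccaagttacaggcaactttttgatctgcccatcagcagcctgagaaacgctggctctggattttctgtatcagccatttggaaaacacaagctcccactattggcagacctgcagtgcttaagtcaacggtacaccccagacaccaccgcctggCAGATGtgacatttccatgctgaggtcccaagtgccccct
Ntng1: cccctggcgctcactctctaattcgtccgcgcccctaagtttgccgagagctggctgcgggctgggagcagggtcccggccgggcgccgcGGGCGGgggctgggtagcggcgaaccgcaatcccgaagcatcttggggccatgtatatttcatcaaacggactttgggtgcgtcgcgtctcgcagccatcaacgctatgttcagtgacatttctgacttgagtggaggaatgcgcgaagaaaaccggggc
Unc5a: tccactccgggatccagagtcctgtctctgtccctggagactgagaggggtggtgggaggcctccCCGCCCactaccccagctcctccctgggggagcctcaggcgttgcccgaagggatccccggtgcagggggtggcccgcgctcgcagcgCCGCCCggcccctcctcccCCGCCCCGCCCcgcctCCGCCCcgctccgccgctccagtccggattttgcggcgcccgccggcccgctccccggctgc
Unc5c: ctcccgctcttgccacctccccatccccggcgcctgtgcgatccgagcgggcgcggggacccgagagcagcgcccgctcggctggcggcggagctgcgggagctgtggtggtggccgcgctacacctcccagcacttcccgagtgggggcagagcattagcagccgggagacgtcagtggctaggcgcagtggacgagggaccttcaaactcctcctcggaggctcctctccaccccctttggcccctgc

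The 2 netrin-G promoters differ in composition. That of Ntng2 has a GC content of 52.4% and 4 CpG dinucleotides, and that of Ntng1 has 62.4% and 25. The windows of Unc5a and Unc5c hold 76.8% and 71.2% GC, with 25 and 23 CpG. The motifs searched, on both strands, were the CREB site TGACGTCA, the EGR site GCGTGGGCG, the AP-1 sites TGACTCA and TGAGTCA (reverse complements of each other, so 1 motif), the E-boxes CAGCTG and CAGATG, and the GC box GGGCGG. The Ntng2 window held an E-box CAGATG starting 40 bases before the start, the Ntng1 window 1 GC box and the Unc5a window 5 GC boxes, read as CCGCCC on the printed strand, of which the pair starting at 78 and 73 bases before the start overlap. The Unc5c window held none of these motifs. Among all 32851 RefSeq windows of this length, 32.7% held a GC box and 14.4% a CAGATG. Of the 78 windows of the 62 members in that table, 70.5% held a GC box and 7.69% a CAGATG. The share with a CAGCTG was 15.4% against 13%, that with a CREB site 1.28% against 1.55%, that with an EGR site 2.56% against 0.536% and that with an AP-1 site 2.56% against 4.46%. A match is a description of letters and shows no binding.

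Compared per length of exon, guidance genes spanned a wide range of levels in saline striatum. The highest was Efnb3, an ephrin-B ligand, at 60.3 ± 7.40 CPM per kb, next to Sema7a, a lipid-anchored semaphorin, at 58.6 ± 7.34 (SD, n = 6), which lie within each other's spread. Epha4, an Eph receptor that binds both classes of ephrin, followed at 33.5 ± 0.853, then Ephb6, an Eph receptor without kinase activity, at 29.9 ± 3.58. Sema6b had 26.0 ± 1.41, Efna3 25.6 ± 3.96, Plxnd1, the receptor for Sema3e, 22.6 ± 2.80, and Unc5a 22.6 ± 1.04, again without a gap beyond the spread between neighbours. Robo2 led the Robo receptors at 17.6 ± 1.60, Slit3 the Slits at 10.5 ± 1.81, Sema3e the secreted semaphorins at 8.72 ± 0.660 and Nrp1 the neuropilins at 5.92 ± 0.186. The netrins themselves were scarce, with Ntn4 highest at 3.18 ± 0.545. At the bottom lay Epha1 at 0.159 ± 0.0278 CPM per kb.

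**Figure D1:**
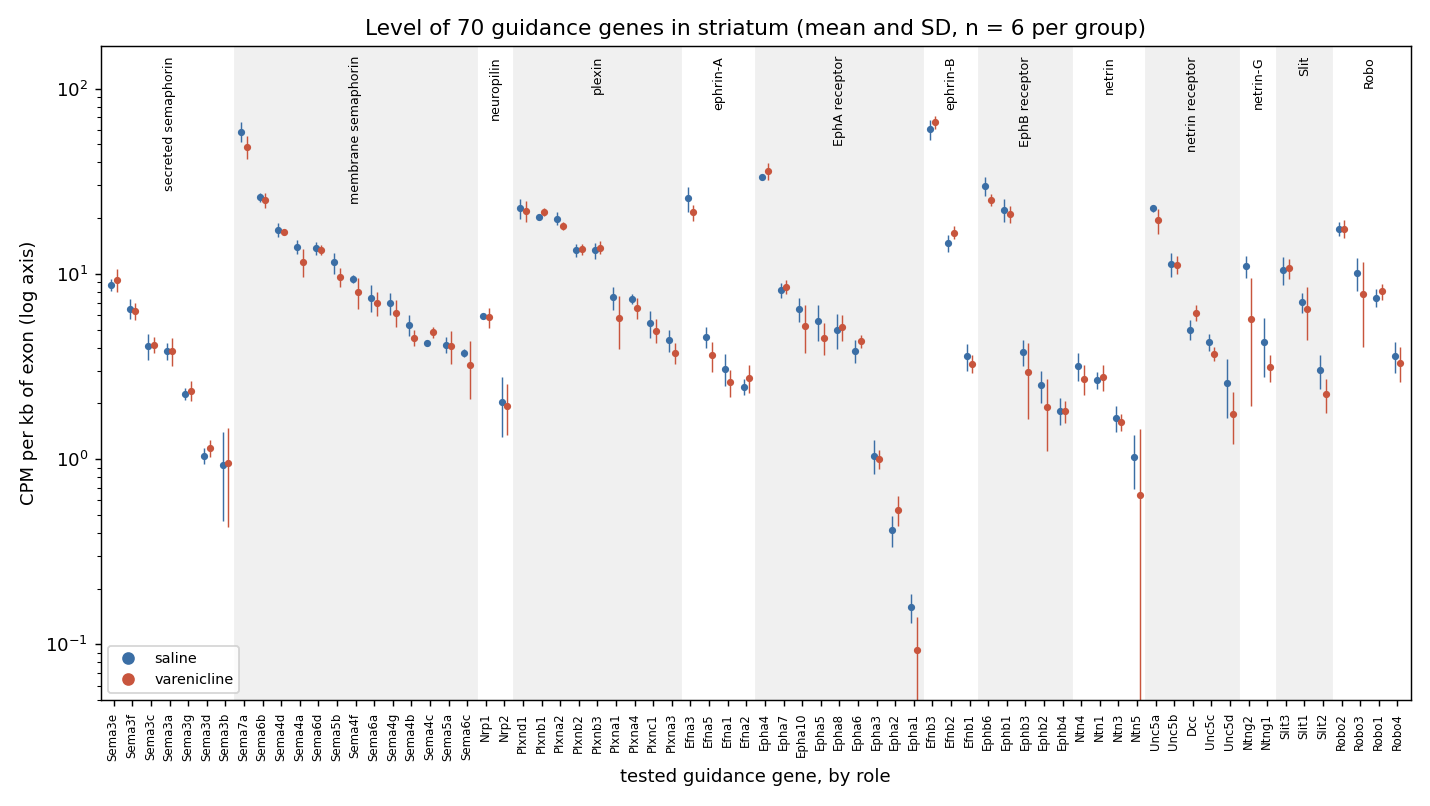
Level of the 70 tested guidance genes in CPM per kb of exon (log axis), grouped by role, with points for the mean and bars for the SD of 6 saline (blue) and 6 varenicline (red) libraries; bars that reach below the axis are cut there. Efnb3 and Sema7a stand highest, and the netrins and Epha1 are among the lowest.

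More guidance genes were lower than higher in the varenicline libraries, and none passed the adjusted threshold. Of the 70 tested, 47 had a negative and 23 a positive log2 fold change (varenicline minus saline). Their median was -0.08, whereas over all 15111 tested genes it was 0.01, with 47.7% negative. At an unadjusted p under 0.05 in edgeR's quasi-likelihood test, 19 members were lower, 27.1% of the members, where 9.64% of all tested genes were. In the other direction 3 members were higher, 4.29%, where 7.27% of all tested genes were. At an adjusted p of 0.05 edgeR called 0 members and 0 of all tested genes, and the smallest adjusted p among members was 0.143, for Dcc. DESeq2 called 1 member, Dcc, as higher, where it called 1.11% of genes higher and 1.98% lower. The limma-voom fit, which gives each library a weight, called 3 members higher and 16 lower, where it called 4.84% and 9.08% of genes. A single member, Sema4c, had groups that did not overlap, with varenicline above saline, as did 0.43% of all tested genes. No member had all varenicline libraries below all saline ones, where 0.324% of genes did.

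Which libraries carried these differences was tested by leaving out each in turn. Without varenicline 6, the library whose cortical markers lay in the saline range, edgeR called 17 members at an adjusted p of 0.05. Of these 1 was higher and 16 lower, or 1.43% and 22.9% of members, where 3.05% and 7.58% of all tested genes were called. Without any other single library the number stayed at 0. Varenicline 6 stood at an end in other marker lists too. Its striatal projection neuron score (mean log2 CPM of the list), 8.76, was the lowest of its group, whose mean was 9.22 ± 0.254 (SD, n = 6). Its oligodendrocyte score, 8.20, was the lowest of all 12 libraries, and its cholinergic and GABA interneuron score, 4.60, the highest. The part of these lists in the number of calls was not tested. At an unadjusted p under 0.05 the 19 lower members became 25 without varenicline 6 and 11 without varenicline 2 or without varenicline 5, and the 3 higher members became 7 without varenicline 6 and 6 without saline 6. Without varenicline 6, 14.5% of all tested genes were lower and 11.3% higher at that threshold. For the fits without any other library this share was not computed, so their counts have no such comparison. The median difference of the 70 members from their saline mean was between -0.11 and -0.06 on the log2 scale in varenicline 1 to 5 and 0.01 in varenicline 6. In the saline libraries it was between -0.05 and 0.05. When the cortical score was added to the model of all 12 libraries (called here the cortical-score fit), 1 member was lower and 1 higher at an unadjusted p under 0.05, or 1.43% each, where 2% and 3.04% of all genes were. Of the 19 lower members, 15 then had a smaller fold change, 9 of them less than 50% of the size it had without the score, and 16 kept the negative sign. At the adjusted threshold that fit called 0 members, where 0.0529% of genes were called higher. With the cortical score added and varenicline 6 left out, 9 members were lower and 0 higher at an unadjusted p under 0.05. Those were 12.9% and 0% of members, against 5.56% and 5.76% of all tested genes. At the adjusted threshold that fit called 0 members. In it 53 of the 70 members had a negative fold change, and all 19 lower members kept the negative sign. Of the 19, 10 had a smaller fold change than with groups only and all 12 libraries, 5 of them less than 50% of that size. With both the cortical and the septal score in the model of all 12 libraries, 3 members were lower and 0 higher, where 2.21% and 2.67% of genes were. DESeq2 with the cortical score, an alternative added after seeing the data, had 1 higher and 0 lower, where 2.56% and 1.62% of genes were, and called 0 members after adjustment, where 0.135% of genes were called higher and 0.00615% lower. The score itself differed between the groups (5.42 ± 0.301 in saline and 4.34 ± 0.829 in varenicline libraries, SD, n = 6). Fits with the score therefore cannot tell apart group and cortical tissue content. The part of cortical tissue content in each result was not tested.

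**Figure D2:**
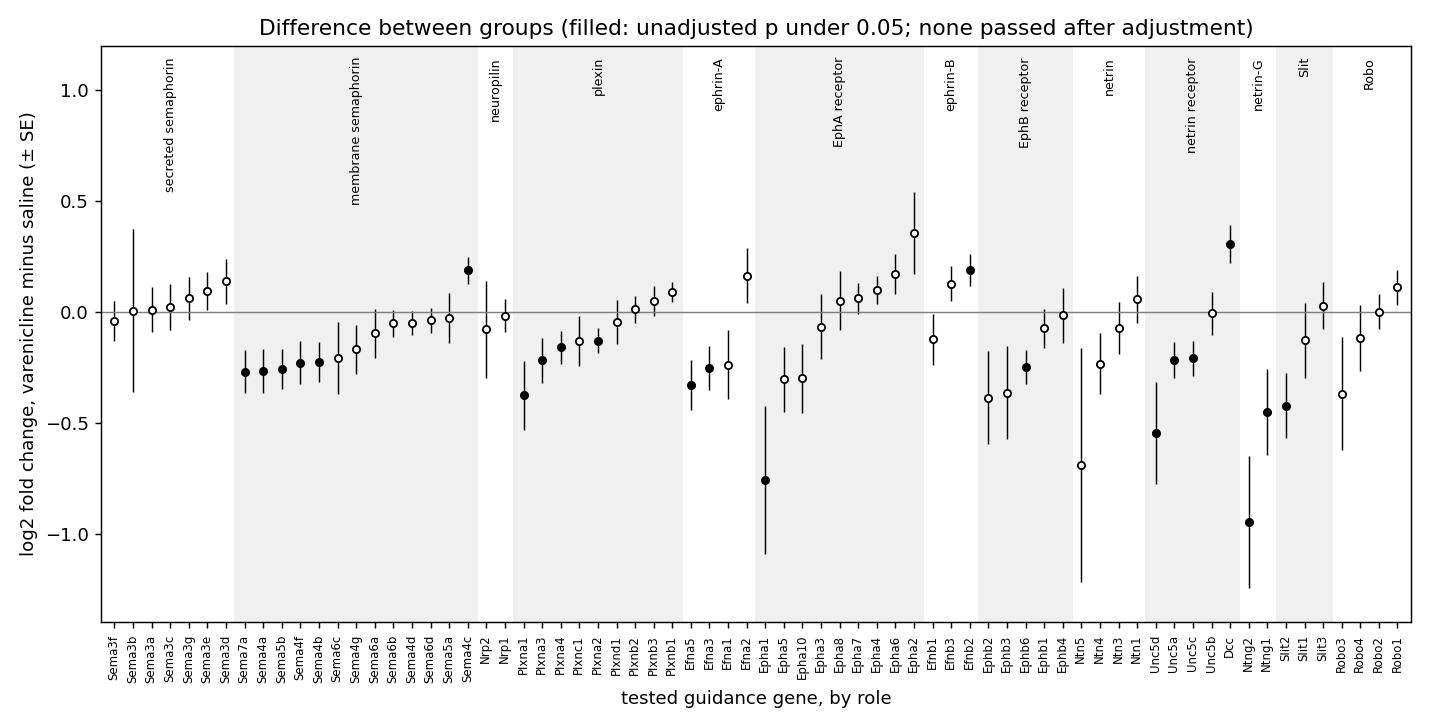
Log2 fold change, varenicline minus saline, of the 70 tested guidance genes by role, with SE bars; filled points have an unadjusted p under 0.05 in edgeR and none passed after adjustment. Of the membrane semaphorins 12 of 13 lie below 0, while 6 of 7 secreted semaphorins lie above it. Of all tested genes 47.7% lie below 0.

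At an unadjusted p under 0.05, 1 of 5 netrin receptors was higher with varenicline and 3 were lower. Of all tested genes 7.27% were higher and 9.64% lower at that threshold. Dcc (ENSMUSG00000060534, chromosome 18, 71253632 to 72351069 on mm10), the receptor through which netrin-1 attracts, ran from 44.7 to 60.9 CPM with a median of 50.4 in saline libraries and from 53.2 to 69.6 CPM with a median of 66.8 in varenicline libraries. All 6 varenicline libraries lay above the saline mean and 4 above the highest saline library, with varenicline 6 the lowest. The log2 fold change amounted to 0.31 (SE 0.0845, edgeR adjusted p = 0.143), and DESeq2 gave an adjusted p of 0.0346. Without varenicline 6 it was 0.35 (edgeR adjusted p = 0.00946), and in the cortical-score fit 0.12 (SE 0.0943, edgeR adjusted p = 0.991).

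The UNC5 receptors, which turn the response to netrin into repulsion, made up the 3 lower ones and a level one. Unc5a (ENSMUSG00000025876, chromosome 13, 54949432 to 55006018) ran from 84.7 to 95.1 CPM with a median of 89.1 in saline libraries and from 66.9 to 99.9 CPM with a median of 72.5 in varenicline libraries. Of the 6 varenicline libraries 5 lay below the lowest saline library, and varenicline 6 lay above the highest. Its log2 fold change stood at -0.22 (SE 0.0812, edgeR adjusted p = 0.198), -0.30 without varenicline 6 (edgeR adjusted p = 0.00239) and -0.03 in the cortical-score fit. With the score added and varenicline 6 left out together, Unc5a was at -0.24 (SE 0.105, edgeR adjusted p = 0.424). Unc5c (ENSMUSG00000059921, chromosome 3, 141465564 to 141834924) had medians of 40.9 and 34.3 CPM, with ranges of 34.1 to 45.4 and 30.5 to 39.0, and all 6 varenicline libraries below the saline mean. Unc5d (ENSMUSG00000063626, chromosome 8, 28646717 to 29219636) had medians of 22.4 and 14.8 CPM, with ranges of 12 to 35.3 and 11.2 to 25.7 that overlapped widely. The log2 fold changes of Unc5c and Unc5d were -0.21 (SE 0.0777) and -0.55 (SE 0.228), with edgeR adjusted p of 0.196 and 0.244. Without saline 3, the library highest for both, that of Unc5d was -0.39, and without varenicline 6 it was called at -0.72 (edgeR adjusted p = 0.0360). In the cortical-score fit Unc5c was at -0.11 (SE 0.102) and Unc5d at -0.10 (SE 0.259). Unc5b, which in the brain also marks vessels, averaged 66.3 ± 9.60 and 65.9 ± 7.69 CPM.

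Among the netrin ligands no member had an unadjusted p under 0.05. Ntn1, the classical netrin, averaged 15.4 ± 1.64 CPM in the saline and 15.9 ± 2.49 CPM in the varenicline libraries. Ntn4, a laminin-related netrin, averaged 7.67 ± 1.31 and 6.55 ± 1.18 CPM, and Ntn3 8.16 ± 1.30 and 7.77 ± 0.818 CPM. Ntn5 was scarce, at 472 counts in all, and had the widest spread, relative to its mean, of any member in varenicline libraries, from 0.174 to 5.08 CPM, the top value again in varenicline 6. Its log2 fold change of -0.69 (SE 0.528, edgeR adjusted p = 0.528) was -1.69 without that library (edgeR adjusted p = 0.00496) and turned to 0.38 in the cortical-score fit (SE 0.358). In the cortical-score fit without varenicline 6, Ntn5 was at -0.64 (SE 0.580, edgeR adjusted p = 0.665).

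Both netrin-G genes were lower at an unadjusted p under 0.05, where 9.64% of all tested genes were. Ntng2 had the largest fold change of all members. Netrin-G proteins sit in the axon membrane and bind the NGL adhesion proteins, encoded by Lrrc4c and Lrrc4, on dendrites. Ntng2 (ENSMUSG00000035513, chromosome 2, 29194726 to 29248099) ran from 16.8 to 24.7 CPM with a median of 22.3 in saline libraries and from 4.48 to 24.9 CPM with a median of 9.73 in varenicline libraries. The library varenicline 6 held the highest value of all 12, and the other 5 varenicline libraries, none above 11.5 CPM, were all below the lowest saline library. For Ntng2 the log2 fold change came to -0.95 (SE 0.296, edgeR adjusted p = 0.153), -1.35 without varenicline 6 (SE 0.197, edgeR adjusted p = 8.8e-04) and -0.17 in the cortical-score fit (SE 0.181, edgeR adjusted p = 0.991). With the score added and varenicline 6 left out together, Ntng2 was at -0.47 (SE 0.276, edgeR adjusted p = 0.507). Ntng1 (ENSMUSG00000059857, chromosome 3, 109780050 to 110143472) showed another pattern, with medians of 21.8 and 16.3 CPM and ranges of 13.9 to 33.0 and 13.7 to 22.4. Its saline libraries were the more variable, and saline 3, 5 and 6 lay above every varenicline library. For Ntng1 the log2 fold change stood at -0.45 (SE 0.195, edgeR adjusted p = 0.257), and in the cortical-score fit it was larger, -0.61 (SE 0.26, edgeR adjusted p = 0.983). That fit left Ntng1 as the single lower member at an unadjusted p under 0.05. The promoters printed above show the same 2 genes to be unlike in CpG content, but no relation of promoter content to fold change was tested.

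**Figure D3:**
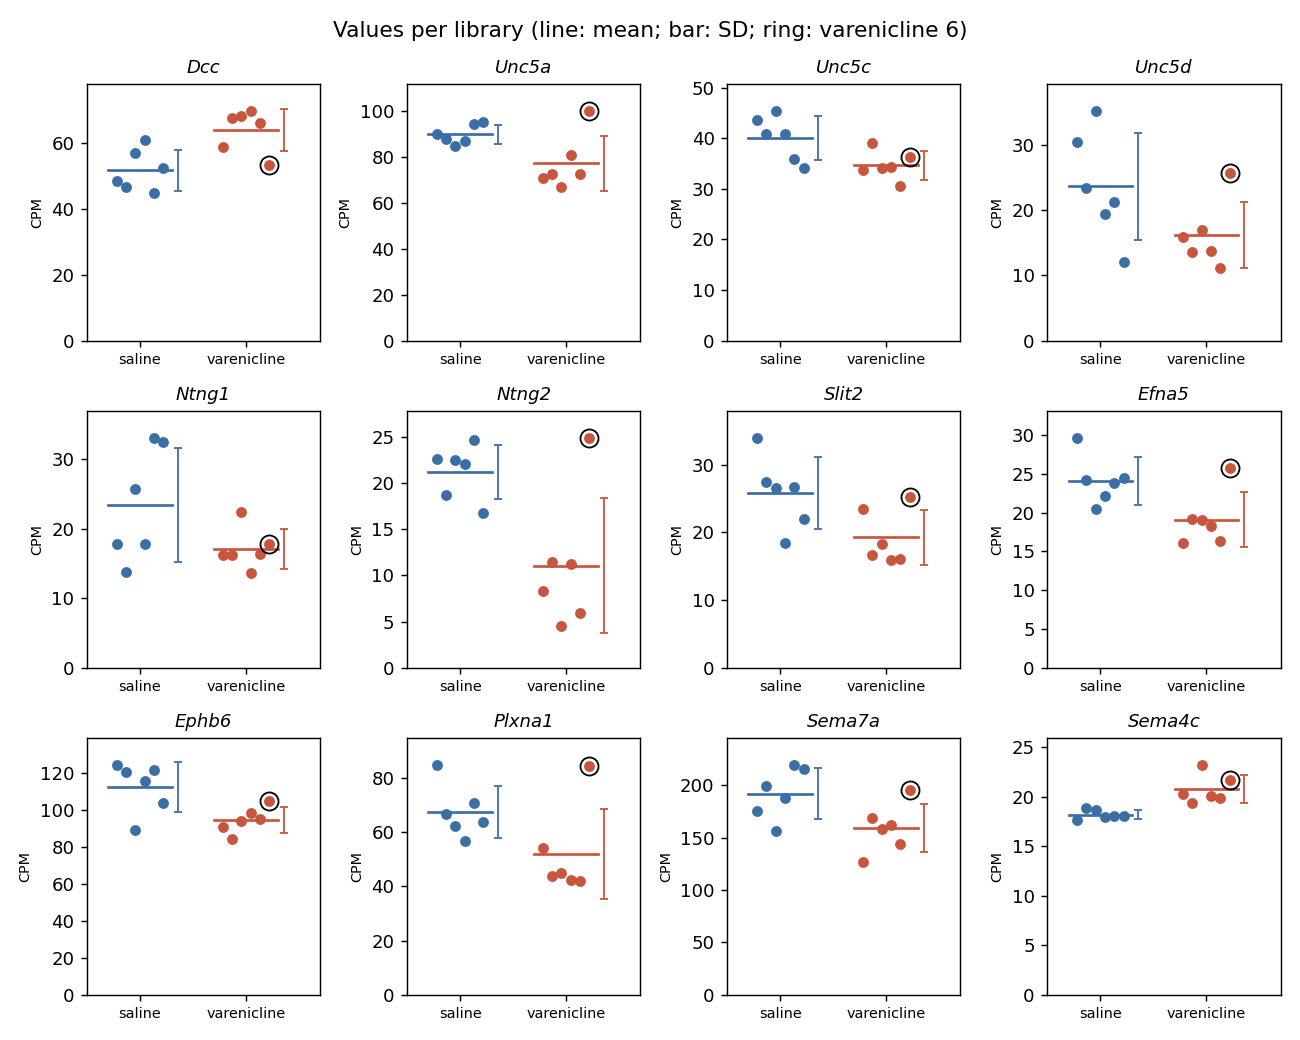
CPM of 12 guidance genes in each of 6 saline (blue) and 6 varenicline (red) libraries, with a line for the mean and a bar for the SD; the ring marks varenicline 6. For Ntng2, Plxna1 and Unc5a the ringed library lies apart from the other 5 of its group, while for Sema4c all 6 lie above the saline libraries.

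Among the 3 Slit ligands, which bind Robo receptors, 1 had an unadjusted p under 0.05 and was lower. Of all tested genes 9.64% were lower at that threshold. Slit2 (ENSMUSG00000031558, chromosome 5, 47983155 to 48306282) ran from 18.4 to 33.9 CPM with a median of 26.6 in saline libraries and from 15.9 to 25.2 CPM with a median of 17.5 in varenicline libraries. All 6 varenicline libraries lay below the saline mean, and 4 below the lowest saline library. Its log2 fold change came to -0.42 (SE 0.146, edgeR adjusted p = 0.181), -0.52 without varenicline 6 (edgeR adjusted p = 0.0255) and -0.07 in the cortical-score fit. With the score added and varenicline 6 left out together, Slit2 was at -0.04 (SE 0.230). Slit1 averaged 36.8 ± 4.40 and 33.8 ± 10.7 CPM, and Slit3, the most abundant Slit per length, 52.5 ± 9.05 and 53.5 ± 6.54 CPM. None of the 4 Robo receptors had an unadjusted p under 0.05. Robo2 averaged 141 ± 12.8 and 141 ± 16.3 CPM and Robo1, its close relative, 56.3 ± 6.07 and 60.9 ± 6.03 CPM. Robo3, which modulates Slit responses at the midline, ranged from 30.3 to 56.1 CPM within the saline and from 16.9 to 65.5 CPM within the varenicline group. Robo4, the endothelial Robo, averaged 13.9 ± 2.63 and 12.8 ± 2.78 CPM, beside endothelial markers with summed levels of 341 to 370 CPM in saline and 325 to 382 CPM in varenicline libraries.

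At an unadjusted p under 0.05, 2 of 4 ephrins of the A class were lower and 1 of 3 of the B class was higher. The shares of all tested genes were 9.64% lower and 7.27% higher. Efna5 (ENSMUSG00000048915, chromosome 17, 62602957 to 62881317), a lipid-anchored ligand of EphA receptors, ran from 20.5 to 29.6 CPM with a median of 24 in saline libraries and from 16.1 to 25.8 CPM with a median of 18.7 in varenicline libraries. Of its 6 varenicline libraries 5 lay below the lowest saline library, and varenicline 6 lay inside the saline range. Its log2 fold change amounted to -0.33 (SE 0.112, edgeR adjusted p = 0.178), -0.43 without varenicline 6 (edgeR adjusted p = 0.00701) and -0.11 in the cortical-score fit. Efna3 (ENSMUSG00000028039, chromosome 3, 89314951 to 89322879), known from astrocytes as a partner of Epha4, had medians of 31.2 and 26.3 CPM, with ranges of 25.6 to 39.8 and 22.5 to 29.3 that overlapped. Saline 6 was the highest library. The Efna3 fold change was -0.25 on the log2 scale (SE 0.0983, edgeR adjusted p = 0.212), -0.26 in the cortical-score fit and -0.17 without saline 6. Efna1 averaged 5.05 ± 0.994 and 4.26 ± 0.695 CPM, and Efna2 5.24 ± 0.504 and 5.87 ± 1.02 CPM. In the cortical-score fit Efna2 was the single higher member at an unadjusted p under 0.05, at a log2 fold change of 0.36 (edgeR adjusted p = 0.983).

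Efnb2 (ENSMUSG00000001300, chromosome 8, 8617439 to 8660773), a transmembrane ephrin of neurons and arterial vessels, ran from 55.6 to 72.6 CPM with a median of 63.1 with saline and from 64.6 to 78.2 CPM with a median of 72.7 with varenicline. All 6 varenicline libraries lay above the saline mean and 3 above the highest saline library. The log2 fold change stood at 0.19 (SE 0.0702, edgeR adjusted p = 0.197), with 0.11 in the cortical-score fit (SE 0.094). Efnb3 averaged 194 ± 23.8 and 212 ± 17.2 CPM, a log2 fold change of 0.13 (edgeR adjusted p = 0.415) that became -0.06 in the cortical-score fit.

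Of the 9 tested EphA receptors 5 were higher and 4 lower. Where 9.64% of all tested genes were lower at an unadjusted p under 0.05, 1 EphA receptor was. That was Epha1 (ENSMUSG00000029859, chromosome 6, 42358487 to 42373268), an EphA receptor best known from epithelia, with 108 counts in all and 2 to 16 per library. Its medians were 0.522 and 0.308 CPM, with overlapping ranges of 0.399 to 0.646 and 0.114 to 0.517, so its log2 fold change of -0.76 (SE 0.333, edgeR adjusted p = 0.262) rests on very few reads. Its exons also overlap those of Zyx on the opposite strand. Epha4 averaged 212 ± 5.40 CPM in the saline and 227 ± 23.4 CPM in the varenicline libraries. The saline libraries were tight, and 4 varenicline libraries lay above and 2 below all of them (log2 fold change 0.10, SE 0.062, edgeR adjusted p = 0.430). In the cortical-score fit the value of Epha4 was -0.07. Epha5 and Epha10 had log2 fold changes of -0.30 each (SE 0.145 and 0.156, edgeR adjusted p = 0.304 and 0.341), and without varenicline 6 Epha10 was called at -0.45 (edgeR adjusted p = 0.0352). In the cortical-score fit Epha5 was at -0.07 (SE 0.181) and Epha10 at -6.3e-04 (SE 0.171). In that fit without varenicline 6, Epha5 was at 0.03 (SE 0.266) and Epha10 at -0.32 (SE 0.247). Epha2, at 1.63 ± 0.310 and 2.10 ± 0.385 CPM, had the highest fold change of the class, 0.36 (SE 0.185, edgeR adjusted p = 0.341), from few counts.

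All 5 EphB receptors had negative fold changes, where 47.7% of all tested genes did. Ephb6 (ENSMUSG00000029869, chromosome 6, 41605482 to 41620507) ran from 89.2 to 124 CPM with a median of 118 with saline and from 84.3 to 105 CPM with a median of 94.4 with varenicline. All 6 varenicline libraries lay below the saline mean, but saline 3 and saline 6 lay among them. The log2 fold change came to -0.25 (SE 0.077, edgeR adjusted p = 0.151), -0.28 without varenicline 6 (edgeR adjusted p = 0.0288) and -0.18 in the cortical-score fit. Ephb2 and Ephb3, the kinase-active receptors of synaptic NMDA receptor clustering and of axon tracts, had -0.39 and -0.36 (SE 0.209 each, edgeR adjusted p = 0.358 and 0.385). Without varenicline 6 they had -0.64 each (edgeR adjusted p = 0.0113 and 0.00603), and in the cortical-score fit 0.15 and 0.19. In the cortical-score fit without varenicline 6 they were at -0.18 each (SE 0.257 and 0.218). Ephb1, the most abundant kinase-active EphB per length, averaged 103 ± 14.8 and 98.0 ± 9.97 CPM.

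**Figure D4:**
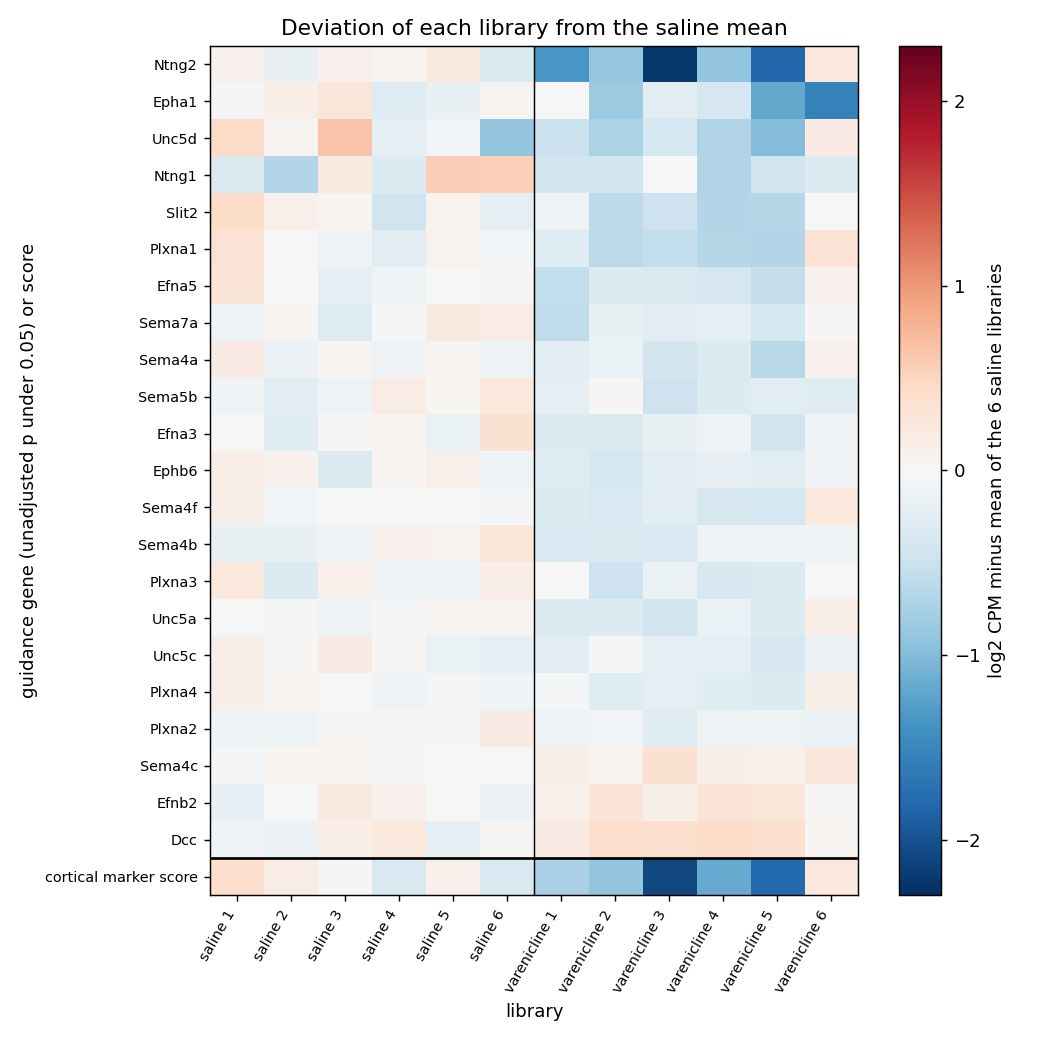
Deviation of each library (columns) from the mean of the 6 saline libraries, in log2 CPM, for the 22 guidance genes with an unadjusted p under 0.05 (rows, ordered by fold change) and, below the line, for the cortical marker score. In varenicline 6 the rows of Ntng2, Plxna1, Unc5d and Sema4f and the cortical score are at or above the saline mean.

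Of the 13 membrane semaphorins, the largest role group, 5 were lower and 1 higher at an unadjusted p under 0.05. Over all tested genes 9.64% were lower and 7.27% higher. Smaller role groups held larger shares, with 3 lower and 1 higher of 5 netrin receptors, 2 lower of 2 netrin-G genes and 2 lower of 4 ephrins of the A class. Sema7a (ENSMUSG00000038264, chromosome 9, 57940135 to 57962865), which signals through integrins and Plxnc1, ran from 156 to 219 CPM with a median of 193 with saline and from 127 to 195 CPM with a median of 160 with varenicline. The groups overlapped, with varenicline 6 the highest of its group and 2 varenicline libraries below all saline ones. Its log2 fold change amounted to -0.27 (SE 0.0976, edgeR adjusted p = 0.192), -0.33 without varenicline 6 (edgeR adjusted p = 0.0246) and -0.18 in the cortical-score fit. Plxnc1, its receptor, averaged 38.1 ± 6.26 and 34.8 ± 5.18 CPM (edgeR adjusted p = 0.579). Sema4f (ENSMUSG00000000627, chromosome 6, 82911885 to 82939769), a synaptic semaphorin, had medians of 46.6 and 37.4 CPM with ranges of 45.2 to 51.7 and 35.3 to 55.6. Of its varenicline libraries 5 lay below the lowest saline library and varenicline 6 above the highest. Its log2 fold change of -0.23 (SE 0.0952, edgeR adjusted p = 0.242) was -0.34 without varenicline 6 (edgeR adjusted p = 0.00118) and -0.01 in the cortical-score fit. With the score added and varenicline 6 left out together, Sema4f was at -0.31 (SE 0.105, edgeR adjusted p = 0.390). Sema4a (ENSMUSG00000028064, chromosome 3, 88435962 to 88461182), a ligand of plexins of the B and D classes, had medians of 47.7 and 39.5 CPM, with ranges of 43.9 to 54.8 and 31.0 to 51.2. Again 5 varenicline libraries lay below all saline libraries. Its fold change on the log2 scale was -0.27 (edgeR adjusted p = 0.199), which turned to 0.01 in the cortical-score fit. In that fit without varenicline 6, Sema4a was at -0.0075 (SE 0.126).

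Sema5b and Sema4b kept nearly the same fold change in the cortical-score fit, though with larger errors. Sema5b (ENSMUSG00000052133, chromosome 16, 35541362 to 35664258), a semaphorin with thrombospondin repeats, had medians of 51.5 and 43.2 CPM with ranges of 43.6 to 61.6 and 37.4 to 53.0, and 4 varenicline libraries lay below all saline ones. Its log2 fold change stood at -0.26 (SE 0.0917, edgeR adjusted p = 0.187) and -0.25 in that fit (SE 0.126). Sema4b (ENSMUSG00000030539, chromosome 7, 80186841 to 80226524) had medians of 20.5 and 17.8 CPM with ranges of 18.3 to 25.1 and 16.2 to 19.6, and 3 varenicline libraries lay below all saline ones. Its value was -0.23 (SE 0.0911, edgeR adjusted p = 0.228), with -0.26 in that fit (SE 0.125). Sema4c (ENSMUSG00000026121, chromosome 1, 36548639 to 36558381), a ligand of Plxnb2, was the higher member. Sema4c ran from 17.6 to 18.9 CPM with a median of 18.1 with saline and from 19.4 to 23.2 CPM with a median of 20.2 with varenicline. For Sema4c the log2 fold change came to 0.19 (SE 0.0605, edgeR adjusted p = 0.162) and 0.17 both without varenicline 6 and in the cortical-score fit. With the score added and varenicline 6 left out together, Sema4c was at 0.047 (SE 0.122). The other 7 membrane semaphorins had log2 fold changes between -0.21 and -0.03 and no unadjusted p under 0.05. The lowest was that of Sema6c, which was called without varenicline 6 at -0.40 (edgeR adjusted p = 0.0176). Sema6c was at 0.08 in the cortical-score fit (SE 0.176), and at -0.55 in that fit without varenicline 6 (SE 0.195, edgeR adjusted p = 0.390). The secreted semaphorins had no member with an unadjusted p under 0.05. Their log2 fold changes ran from -0.04 to 0.14, and Sema3e, the most abundant, averaged 59.8 ± 4.53 and 63.9 ± 9.04 CPM.

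Of the 9 plexins 4 were lower and 0 higher at an unadjusted p under 0.05, where 9.64% and 7.27% of all tested genes were. The 4 were those of the A class, the receptors of most secreted and of class 6 semaphorins. This split of the role group by class was not set in advance. Plxna1 (ENSMUSG00000030084, chromosome 6, 89316314 to 89362613) ran from 56.8 to 84.6 CPM with a median of 65.4 with saline and from 42.2 to 84.4 CPM with a median of 44.4 with varenicline. Again 5 varenicline libraries lay below the lowest saline library, and varenicline 6 lay beside the highest saline library. For Plxna1 the log2 fold change amounted to -0.38 (SE 0.155, edgeR adjusted p = 0.237), -0.57 without varenicline 6 (edgeR adjusted p = 0.00154) and 0.04 in the cortical-score fit. With the score added and varenicline 6 left out together, Plxna1 was at -0.25 (SE 0.155, edgeR adjusted p = 0.525). Plxna4 (ENSMUSG00000029765, chromosome 6, 32144557 to 32588192) had medians of 91.0 and 77.3 CPM with ranges of 85.8 to 101 and 74.0 to 101, and 4 varenicline libraries lay below all saline ones. The value of Plxna4 was -0.16 (SE 0.0747, edgeR adjusted p = 0.292), with -0.23 without varenicline 6 (edgeR adjusted p = 0.0209) and 0.03 in the cortical-score fit. Plxna2 (ENSMUSG00000026640, chromosome 1, 194619829 to 194816868) had medians of 217 and 203 CPM with ranges of 204 to 250 and 181 to 210, and a log2 fold change of -0.13 (SE 0.0562, edgeR adjusted p = 0.258), with the same -0.13 in the cortical-score fit. Plxna3 (ENSMUSG00000031398, chromosome X, 74329066 to 74344689) had medians of 30.4 and 25.8 CPM with ranges of 24.3 to 35.7 and 21.7 to 30.0, and a log2 fold change of -0.22 (SE 0.103, edgeR adjusted p = 0.295), with -0.13 in the cortical-score fit (SE 0.136). Their co-receptor Nrp1 averaged 35.0 ± 1.10 and 34.7 ± 4.29 CPM and Nrp2 16.5 ± 5.87 and 15.7 ± 4.80 CPM. Plxnd1, the receptor of Sema3e, averaged 156 ± 19.4 and 151 ± 20.5 CPM, and Plxnb1 174 ± 6.15 and 186 ± 9.55 CPM (log2 fold change 0.09, edgeR adjusted p = 0.315).

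**Figure D5:**
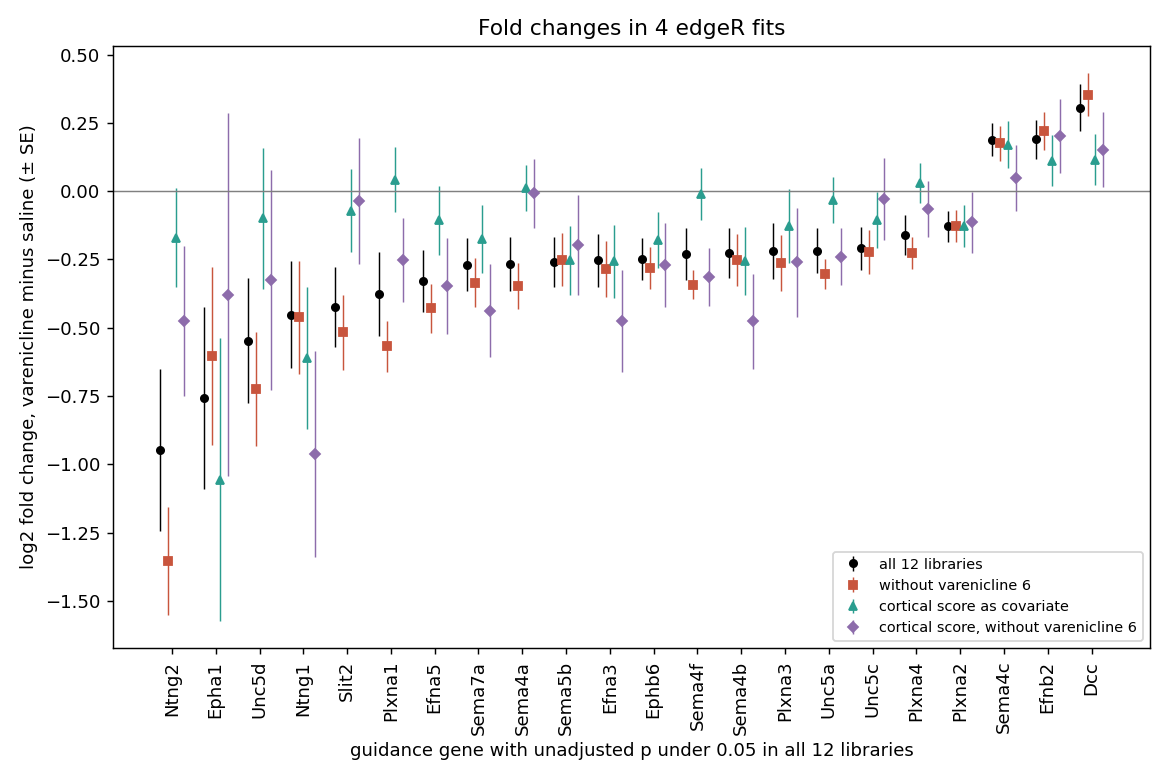
Log2 fold change (± SE) of the 22 guidance genes with an unadjusted p under 0.05, in 4 edgeR fits: all 12 libraries, without varenicline 6, with the cortical marker score as a covariate, and with that covariate and without varenicline 6. Ntng2 moves from -0.95 to -0.17 in the cortical-score fit, while Sema5b, at -0.26 and -0.25, and Plxna2, at -0.13 in both, hardly move. With that covariate and without varenicline 6, Ntng2 is at -0.47.

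The partners of these proteins were described from lists of other guidance genes. Of 40 co-receptors and other cues, 11 were lower and 0 higher at an unadjusted p under 0.05, where 9.64% and 7.27% of all tested genes were. The median log2 fold change was -0.09, and edgeR called 0 at the adjusted threshold. Without varenicline 6 edgeR called 10 lower and 3 higher (7.58% and 3.05% of all tested genes), and in the cortical-score fit 2 were lower and 1 higher at the unadjusted threshold (2% and 3.04% of all tested genes). Nrcam, an adhesion molecule that joins semaphorin receptor complexes, averaged 318 ± 10.1 and 274 ± 18.8 CPM (log2 fold change -0.22, SE 0.05, edgeR adjusted p = 0.131). Dscam, a netrin co-receptor, averaged 46.8 ± 6.29 and 32.7 ± 9.60 CPM, and Lrrc4, a netrin-G ligand protein gene, 75.6 ± 4.53 and 65.2 ± 5.87 CPM. The log2 fold changes of Dscam and Lrrc4 were -0.52 and -0.21 (edgeR adjusted p = 0.147 each). In the cortical-score fit Nrcam was at -0.11, Dscam at -0.09 and Lrrc4 at -0.09. Lrrc4c, the other netrin-G partner named above, averaged 124 ± 5.75 and 118 ± 8.80 CPM (log2 fold change -0.06, edgeR adjusted p = 0.572), with -0.16 in the cortical-score fit. Dscaml1 was at -0.18 (edgeR adjusted p = 0.212) and at -0.22 in the cortical-score fit. Lrrc4c and Dscaml1 were the 2 lower genes of that fit. Of 59 tested effectors inside the cell, 15 were lower and 1 higher at an unadjusted p under 0.05 (9.64% and 7.27% of all tested genes), with a median of -0.03, and 0 passed after adjustment. Without varenicline 6 edgeR called 14 lower and 0 higher, and in the cortical-score fit 1 was lower and 1 higher at the unadjusted threshold, against the 2% and 3.04% of all tested genes. Among them Pak1, a kinase downstream of Rac and Cdc42, averaged 303 ± 42.6 and 213 ± 53.7 CPM, and Kalrn, an exchange factor for Rac, 569 ± 45.5 and 458 ± 65.8 CPM. The log2 fold changes of Pak1 and Kalrn were -0.51 and -0.31 (edgeR adjusted p = 0.138 and 0.140), with -0.08 and -0.09 in the cortical-score fit. Rock1 was the higher gene, at 39.6 ± 2.81 and 44.8 ± 2.77 CPM. Its log2 fold change was 0.18 (edgeR adjusted p = 0.178), with 0.25 in the cortical-score fit.

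Whether counting used strand was not given in the sources used here. In GENCODE vM21, exons of 12 of the 70 tested members overlap exons of a gene on the opposite strand, among them Sema4c, Unc5a, Plxna1, Plxna4, Efna3 and Epha1, and exons of 4 overlap another annotated gene on their own strand, Ntng2 among them. If counting ignored strand, reads over exons shared with an opposite-strand neighbour could have come from either gene. For neighbours on the same strand that holds either way. How such reads were assigned was not given.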

How the data were processed

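Single-end 150 nt RNA-seq of bilateral striatum from 12 libraries was used. Per the submitters' processing notes the tools were Trimmomatic and FastQC, TopHat2, featureCounts and DESeq2, and Cuffdiff and Cuffnorm, with build mm10. Their versions, roles and the annotation were not given in the sources used here. Per gene, the authors deposited raw read counts with exon length, a table of FPKM values, and a table of Cuffnorm-scaled expression signal. From the counts, genes with at least 10 counts in 6 or more libraries were tested with edgeR 4.0.16 in R 4.3.3 (trimmed mean of M-values scaling, quasi-likelihood F test, groups only). P-values were adjusted by Benjamini-Hochberg over 15111 genes. CPM used the same scaling, and log2 CPM a prior count of 2. Alternatives were DESeq2 1.42.0, limma 3.58.1 with voom weights, limma on log2(FPKM + 1), log2(FPKM + 0.1) and log2(Cuffnorm signal + 1), marker scores as covariates, and leaving out each library. Of these fits, the edgeR fit with groups only was tested on simulated data, and the alternatives were not.

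Given in full are tested members with an unadjusted p under 0.05 and the most abundant member of each role; other genes named with values were chosen after their values were seen. The members, gene lists and marker lists were chosen with earlier results of these data known. All libraries carry the same replicate label, so they were numbered in accession order. The 66 pairs of libraries all differed by more than sampling noise. Promoter windows came from RefSeq on GRCm38.p6, and gene overlaps from GENCODE vM21, whose exon starts equalled 1320 of the 1359 deposited ones in the members.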

Additional observations from a re-analysis of the deposited data

Results flagged for a closer look

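In 82 sets of 6 libraries (log2 CPM of named guidance genes, marker scores and library totals), 10 values stood apart from the other 5 of their group by Dixon's test, where chance gives about 1 in 20 sets. The library varenicline 6 held 3 of them, each higher than the other varenicline libraries. Efna5 was at 4.69 there and at 4.02 to 4.26 in the others, Sema4f at 5.80 against 5.15 to 5.30, and Plxna1 at 6.40 against 5.40 to 5.76. Sema4f also stood apart in saline 1, at 5.70 against 5.50 to 5.55, and Sema3e in the same library at 5.68 against 5.90 to 5.99. That library had the lowest depth of the saline group, a log2 total of 23.74 where the others had 24.43 to 24.73. Plxnd1, a receptor of vessels and neurons, was low in saline 2, at 6.91 against 7.29 to 7.49, and in varenicline 1, at 6.81 against 7.19 to 7.38. Plxna2 was low in varenicline 3, at 7.50 against 7.64 to 7.71. The oligodendrocyte marker score was high in saline 6, at 8.48 against 8.25 to 8.31.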

How the results depend on the processing

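The count of guidance genes past an adjusted p of 0.05, 0 in edgeR, was 1 with DESeq2 and 19 with limma-voom, and ran from 0 to 17 when 1 library was left out. The 3 higher genes at an unadjusted p under 0.05 became 9 with limma-voom (12.9% of members, where 13% of all tested genes were higher), 5 with log2(FPKM + 1), 6 with log2(FPKM + 0.1) and with log2(Cuffnorm signal + 1), and 3 to 7 with 1 library left out. With the cortical score they became 1, with the cortical and septal scores 0, and with the cortical score and without varenicline 6 also 0. The 19 lower genes became 1, 3 and 9 in these 3 fits and 11 to 25 with 1 library left out. For the FPKM and Cuffnorm fits, and without any library other than varenicline 6, the share of all tested genes was not computed. A fit of DESeq2 with the cortical score, chosen after seeing the data, gave 1 higher and 0 lower. The median, -0.077 in edgeR, was -0.048 with the cortical score, -0.057 with both scores, -0.15 with the cortical score and without varenicline 6, and -0.12 to -0.065 with 1 library left out. The cause of these shifts was not tested.

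Some fold changes turned in sign. With the cortical score, the cortical and septal scores, the cortical score without varenicline 6, and DESeq2 with the cortical score, in that order, Epha4 was at -0.067, -0.028, -0.0091 and -0.063, Efnb3 at -0.059, -0.057, -0.093 and -0.056, Robo2 at -0.14, -0.067, -0.090 and -0.13, and Slit3 at -0.19, -0.10, -0.35 and -0.18. Sema3e was at -0.13, -0.080 and, with DESeq2 and the score, -0.12. With the cortical score in edgeR and DESeq2, Sema4a was at 0.012 and 0.016, Plxna1 at 0.042 and 0.043 and Plxna4 at 0.030 and 0.033. Nrp1 was at 0.15 with the score and without varenicline 6, and Plxnd1 at 0.028 with limma-voom. With 1 library left out the values ran from -0.059 to 0.021 for Nrp1, from -0.11 to 0.025 for Plxnd1, from -0.041 to 0.040 for Robo2 and from -0.026 to 0.12 for Slit3.

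No paired analysis was possible because every library carries the same replicate label. Depth limits Epha1, at 108 counts in all, and the 3 genes below the count filter.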
